A study of Mus musculus with 2 samples.

Results

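The small leucine-rich proteoglycans and the hyaluronan matrix were examined in C2C12 cells, an immortalised mouse myoblast line. The 10 genes, chosen by symbol, were Bgn, Dcn, Lum, Fmod, Vcan, Acan, Hapln1, Has1, Has2 and Cd44, and all 10 were listed among the 21829 genes of the deposited RNA sequencing values. The data were 2 libraries, 1 from unedited C2C12 cells (WT) and 1 from cells with the genotype GNE KO, both grown in the same serum medium with gentamicin. According to the methods, the KO carries a CRISPR–Cas9 indel in exon 2 of Gne, and clones were grown from single cells, so that a feature of 1 clone and an effect of the edit cannot be told apart. With 1 library per line, no difference had a replicate check and no test was run.

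A small leucine-rich proteoglycan is a short core protein of leucine-rich repeats that binds collagen fibrils and, in biglycan and decorin, carries chondroitin or dermatan sulfate chains. The pericellular coat is built differently. Hyaluronan, a long sugar polymer without a core protein, is spun out at the plasma membrane by hyaluronan synthases, and lecticans such as versican and aggrecan attach to it with the help of link proteins. Cd44 is a cell surface receptor for hyaluronan. In muscle these molecules lie in the connective tissue around fibres and around activated myoblasts.

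In the KO-labelled library the values of Bgn, Vcan and Has2 were higher by between 1.52 and 1.84 times, and that of Dcn was 6.18 times higher from a very low level. Cd44 and Fmod differed little, Hapln1 had a value above 0 in the KO-labelled library alone, and Lum, Acan and Has1 were listed at 0 in both libraries. In bulk RNA, fewer cells of a type and less RNA per cell cannot be told apart. Values are taken as FPKM, sequenced fragments scaled to transcript length and to depth, so that levels can be compared between genes. The files name no unit, the methods mention TPM and not FPKM, and in either unit a ratio between genes of 1 library is the same. The log2 fold change is log2((KO + 1)/(WT + 1)), which makes differences of low genes look smaller than they are. Of the 10 genes, 4 passed the filter of a mean of at least 1 FPKM (Bgn, Vcan, Has2 and Cd44). Of these 4, 0 were over 2-fold higher and 0 over 2-fold lower, where the shares of all 10542 genes that passed were 2.84% and 3.43%. By sign alone, 3 of the 4 were higher and 1 was lower, against 50.7% and 49.3% of all genes that passed.

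**Figure D1:**
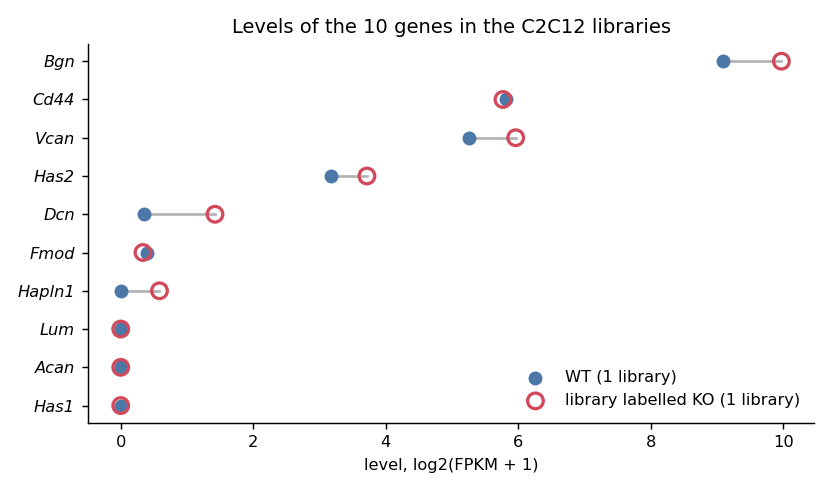
Level of each of the 10 genes on the log2(FPKM + 1) scale (horizontal axis) in the WT library (filled blue points) and the KO-labelled library (open red circles), 1 library each and therefore without error bars. The points of Bgn, Vcan, Has2, Dcn and Hapln1 stand apart, with the KO-labelled library to the right, and those of Cd44 and Fmod nearly coincide.

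Gne itself was 6.67 FPKM in WT and 7.34 FPKM in the KO-labelled library, so its RNA was not lower there and gives no check of the labels. The column totals were 568543 and 574253 FPKM. Low values of genes with 1 annotated transcript tended to fall near multiples of a step, though the match was partial. The fit put 1 fragment on 1 kb of transcript at about 0.0331 FPKM in WT and 0.0388 FPKM in the KO-labelled library. These steps give roughly 30200000 and 25800000 fragments if the unit is FPKM. The markers of the labelled cell type were in part low. Among 8 myoblast genes that passed, 4 were more than 2-fold lower in the KO-labelled library and 1 was more than 2-fold higher, the summed level of the list went from 293 to 119 FPKM, Myod1 was listed at 0 in the KO-labelled library, and Pax7 was at 0 in both.

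Biglycan, encoded by Bgn, binds collagen and growth factors of the TGF-beta family. Bgn was 545 FPKM in WT and 1004 FPKM in the KO-labelled library, a difference of 459 FPKM. Its log2 fold change was 0.88 and its ratio 1.84. It was the most abundant of the 10 genes in both libraries, and it moved from rank 147 to rank 82 among all genes. Bgn alone held 84.4% of the summed FPKM of the 10 genes in WT and 88.6% in the KO-labelled library. A log2 fold change at least as high was seen in 375 of the genes past the filter, a share of 3.56%. Among 163 other genes within 2-fold of its mean level, the share was 1.84%. Bgn lies on the X chromosome of GRCm39 from 72527208 to 72539541, on the plus strand, and its canonical transcript in GENCODE vM39 has 8 exons. The 51 genes past the filter within 5 Mb of its start had a median log2 fold change of -0.080, and 1 of them was as high as Bgn.

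Decorin, the closest relative of biglycan among these genes, limits the lateral growth of collagen fibrils. Dcn was 0.272 FPKM in WT and 1.68 FPKM in the KO-labelled library. With the steps above, these values correspond to about 8.22 and 43.3 fragments per kb of transcript. Its log2 fold change was 1.08, but with a mean of 0.977 FPKM it fell just below the filter. Without a filter it was 1 of 334 genes more than 2-fold higher, 1.53% of all genes, while 0 members were among the 1.79% that were more than 2-fold lower. A log2 fold change as high as that of Dcn was seen in 2.46% of the genes past the filter and in 7.08% of the 1073 other genes within 2-fold of its mean level. Dcn remained far below its relative, with Bgn at 2003 times its level in WT and 597 times in the KO-labelled library.

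Dcn lies on chromosome 10 from 97315275 to 97358155, and its neighbours also tended to be higher. The 27 genes past the filter within 5 Mb of its start had a median of 0.39, 26 of them were higher in the KO-labelled library, and 0 were as high as Dcn. After subtraction of that median the log2 fold change of Dcn was 0.69. Lumican, which organises the collagen of cornea, skin and tendon, is encoded 42.8 kb further along the same strand, from 97400990 to 97408577. Lum was listed at 0 in both libraries, as was Kera, the next gene of the cluster. Epyc, the last, was listed at 0 in WT and at 0.016 FPKM in the KO-labelled library. Kera and Epyc are named after their values were seen.

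Fibromodulin binds collagen and takes part in its crosslinking. Fmod was 0.311 FPKM in WT and 0.262 FPKM in the KO-labelled library, about 9.40 and 6.75 fragments per kb. The log2 fold change was -0.055, while the 58 genes past the filter around it on chromosome 1, where Fmod spans 133964992 to 133976015, had a median of 0.22. Its cluster neighbours Prelp, at 0.219 and 0.031 FPKM, and Optc, at 0.076 FPKM and listed at 0, were also low, and the sum of the 3 genes went from 0.606 to 0.293 FPKM. Prelp and Optc are named after their values were seen. In WT, 3 of the 4 small leucine-rich proteoglycans among the members (Dcn, Lum and Fmod) were thus below 1 FPKM, and Bgn was the exception.

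**Figure D2:**
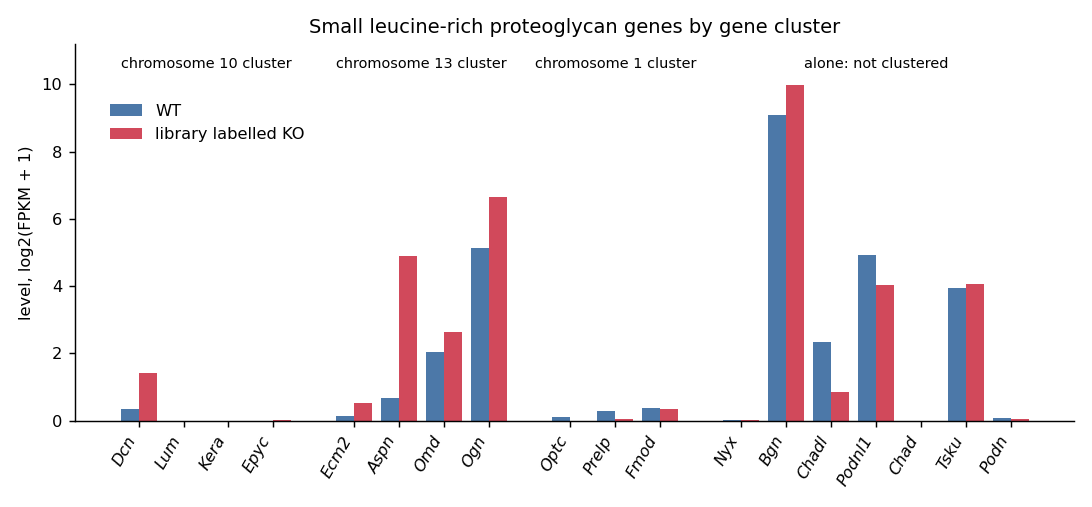
Levels on the log2(FPKM + 1) scale (vertical axis) of 18 small leucine-rich proteoglycan genes, ordered by position within their gene clusters, in WT (blue) and in the KO-labelled library (red), 1 library each. Bgn is the tallest pair of bars, the chromosome 13 cluster is higher in the KO-labelled library in all 4 genes, and the chromosome 10 cluster shows a visible bar for Dcn alone.

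The other genes of the family set these members in context. Of 14 further small leucine-rich proteoglycan genes, 6 passed the filter, 2 were more than 2-fold higher (Aspn and Ogn) and 1 was more than 2-fold lower (Chadl). Their median was 0.36 against 0.0061 for all genes past the filter. Beside this list and the later ones stand the shares of all genes past the filter, 2.84% higher and 3.43% lower. The lists were chosen with earlier results of these data known. Asporin, a relative of decorin and biglycan, went from 0.609 to 28.5 FPKM, and osteoglycin from 34.3 to 99.7 FPKM. Both lie with Omd and Ecm2 in a cluster of 122 kb on chromosome 13, and these 4 genes were all higher, Omd at 3.08 and 5.19 FPKM and Ecm2 at 0.101 and 0.437 FPKM. Omd and Ecm2 are named after their values were seen. Chadl went from 4.06 to 0.807 FPKM, Podnl1 from 29.6 to 15.5 FPKM and Tsku from 14.3 to 15.6 FPKM. Podnl1 lies on chromosome 8 among genes with a median of -1.45. Summed over all 18 genes of the family, the level went from 632 to 1172 FPKM, and Bgn made up 86.2% of it in WT and 85.7% in the KO-labelled library. Without Bgn the sum went from 87.0 to 168 FPKM.

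Versican, the large lectican of loose and developing connective tissue, binds hyaluronan at one end and carries chondroitin sulfate along its middle. Vcan was 37.0 FPKM in WT and 61.3 FPKM in the KO-labelled library, a ratio of 1.66. The log2 fold change was 0.71. This placed it below the 2-fold limit, at a log2 fold change reached by 5.40% of the genes past the filter and by 2.59% of 2785 other genes within 2-fold of its level. It moved from rank 2540 to rank 1493 among all genes. Versican is made in several splice forms that differ in the chondroitin sulfate region, and the 1 value per gene does not separate them.

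Link protein, encoded by Hapln1, locks lecticans onto hyaluronan. Hapln1 was listed at 0 in WT and at 0.50 FPKM in the KO-labelled library, about 12.9 fragments per kb. No fold is given against a value of 0, which can also arise from a failed estimate. Hapln1 and Vcan are neighbours on chromosome 13, Hapln1 from 89686581 to 89759950 on the plus strand and Vcan from 89803431 to 89890814 on the minus strand, with 43.5 kb between them. Both had higher values in the KO-labelled library. The 22 genes past the filter within 5 Mb of the Vcan start had a median of 0.096, and 2 of them were as high as Vcan. These were Edil3, 0.92 Mb from the Vcan start, with a log2 fold change of 3.46, and Lhfpl2, at 0.94. Edil3 and Lhfpl2 are named after their values were seen. Aggrecan, the lectican of cartilage, encoded on chromosome 7 from 78702964 to 78764847, was listed at 0 in both libraries, so that Vcan was the member lectican with a value in these cells. Of 5 other lecticans and link proteins, 1 passed the filter, Hapln4, at 5.89 and 6.41 FPKM, and 0 were more than 2-fold changed.

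Promoters are shown for Bgn and Vcan, which both had higher values in the KO-labelled library, and for Hapln1, which shares the locus of Vcan. They are the 250 bases before the RefSeq start on GRCm38.p6, written 5′ to 3′ on the strand of the gene. Bgn is the plus strand of chrX:73483351-73483600, Vcan the minus strand of chr13:89742513-89742762 and Hapln1 the plus strand of chr13:89540386-89540635. Capitals mark the E-box, CANNTG, which reads the same on both strands and is the motif of basic helix-loop-helix factors.
Bgn: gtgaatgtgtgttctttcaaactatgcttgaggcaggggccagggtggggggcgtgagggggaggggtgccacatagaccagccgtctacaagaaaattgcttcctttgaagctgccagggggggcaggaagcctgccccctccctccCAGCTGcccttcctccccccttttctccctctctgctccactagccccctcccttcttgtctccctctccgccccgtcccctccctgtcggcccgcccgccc
Vcan: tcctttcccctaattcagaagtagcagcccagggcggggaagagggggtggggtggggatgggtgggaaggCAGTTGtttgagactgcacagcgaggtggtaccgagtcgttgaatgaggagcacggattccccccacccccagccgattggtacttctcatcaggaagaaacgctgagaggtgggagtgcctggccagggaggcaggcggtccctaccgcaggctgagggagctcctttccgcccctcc
Hapln1: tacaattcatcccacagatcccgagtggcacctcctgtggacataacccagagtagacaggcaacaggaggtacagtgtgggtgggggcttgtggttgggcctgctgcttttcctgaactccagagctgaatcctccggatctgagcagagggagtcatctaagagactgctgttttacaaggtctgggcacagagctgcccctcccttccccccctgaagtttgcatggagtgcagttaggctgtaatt
Bgn and Vcan each held 1 E-box and Hapln1 held 0, where 66.2% of 32851 promoters of this length held at least 1. The GC box, GGGCGG or its reverse complement CCGCCC, occurred 3 times before Bgn, overlapping matches counted separately, 2 times before Vcan and 0 times before Hapln1, against 32.7% of promoters with at least 1. None of the 3 stretches contained TATAAA or its reverse complement TTTATA, which 12.4% of promoters held. CpG dinucleotides numbered 7 in Bgn, 10 in Vcan and 2 in Hapln1, beside a median of 6 over all promoters. The table held promoters for 7 of the 10 genes, and not for Dcn, Lum and Has2.

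**Figure D3:**
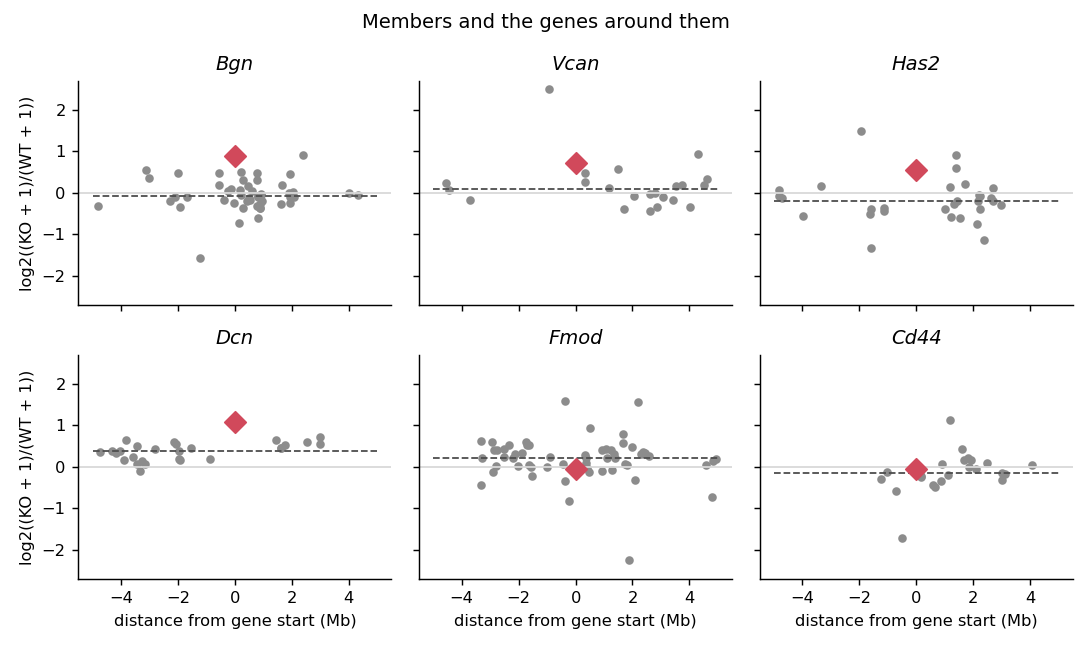
Log2 fold change (vertical axis, drawn within 2.5 in either direction) of Bgn, Vcan, Has2, Dcn, Fmod and Cd44 (red diamonds) and of the genes past the filter within 5 Mb of their start (grey points), by distance in Mb. Dashed lines are the neighbours' medians, which lie at 0.39 around Dcn and at -0.19 around Has2.

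Hyaluronan synthases polymerise UDP-glucuronic acid and UDP-N-acetylglucosamine. Has2 was 8.01 FPKM in WT and 12.1 FPKM in the KO-labelled library. The ratio was 1.52 and the log2 fold change 0.54, a value reached by 8.82% of the genes past the filter and by 8.25% of 4194 other genes within 2-fold of its level. It moved from rank 7359 to rank 6052 among all genes. Has1, on chromosome 17 from 18063585 to 18075467, was listed at 0 in both libraries. Has3, a gene outside the 10 that is named after its values were seen, was 0.019 and 0.021 FPKM, so Has2 accounted for nearly all synthase RNA. Has2 lies on chromosome 15 from 56528342 to 56557999, on the minus strand, where the 30 genes past the filter within 5 Mb had a median of -0.19. Of these, 8 were higher in the KO-labelled library and 3 were as high as Has2. After subtraction of the median its log2 fold change was 0.73. The annotation places the antisense gene Has2os over it. Over Vcan, Acan, Hapln1, Has1 and Cd44 the annotation places opposite-strand genes with Gm symbols. Among these are long noncoding RNA genes, processed pseudogenes and a small nuclear RNA gene. The library kits keep strand, but whether counting used it is not given in the sources used here, and without it reads of such pairs cannot be told apart.

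Cd44 was 55.2 FPKM in WT and 53.6 FPKM in the KO-labelled library, a ratio of 0.970. Its log2 fold change, -0.042, lay within the interquartile range of all genes, -0.21 to 0.23. It was the second most abundant of the 10 genes in WT and the third in the KO-labelled library, where Vcan had passed it. The level of this receptor was 6.89 times that of Has2 in WT and 4.41 times in the KO-labelled library. Cd44 spans 102641486 to 102732010 of chromosome 2, and its standard and variant splice forms share the 1 value. The list of Cd44 partners held 9 genes, of which 2, Esrp1 and Esrp2, are splicing regulators and were at 0 in both libraries. The other 7 passed the filter, 1 was more than 2-fold higher and 0 were more than 2-fold lower. The 1 was Ank3, an ankyrin, at 2.35 and 7.75 FPKM. Osteopontin, a secreted ligand encoded by Spp1, was 1526 and 2200 FPKM. The linker genes Msn and Rdx were 195 and 197 FPKM and 51.8 and 82.2 FPKM, and the third linker, Ezr, was lower, at 34.1 and 18.9 FPKM. Ezr, Esrp1 and Esrp2 are named after their values were seen.

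**Figure D4:**
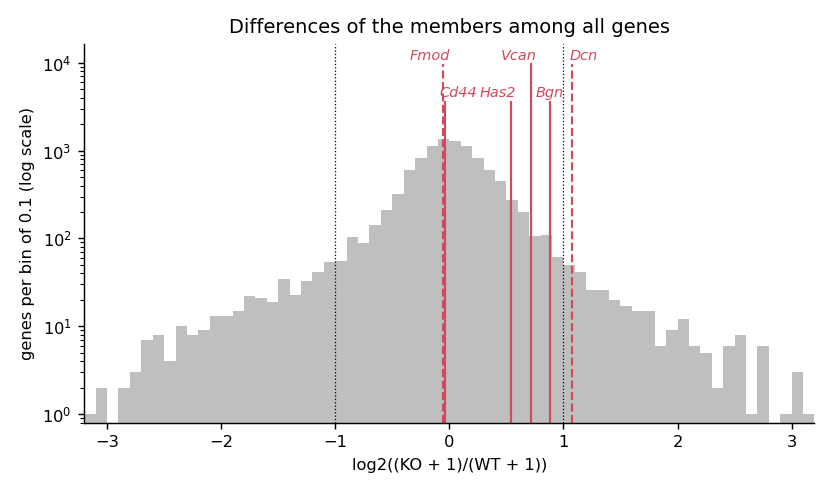
Number of genes past the filter (vertical axis, log scale) by log2 fold change in bins of 0.1 (horizontal axis, shown from -3.2 to 3.2), with the members marked by red lines, dashed for Dcn and Fmod, which did not pass the filter. Dotted lines mark a 2-fold difference in either direction; Bgn, Vcan and Has2 lie to the right of 0 and inside the line, and Dcn lies beyond it.

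Genes that make, bind and remove hyaluronan gave 8 past the filter of 23 found, with 3 more than 2-fold higher, 0 lower to that degree and a median of 0.021. Cemip, which takes part in hyaluronan breakdown, was 0.573 and 3.71 FPKM, beside the Has2 values of 8.01 and 12.1 FPKM. Cemip2, on the same list, was more abundant and differed little, at 16.9 and 16.2 FPKM. Cemip2 is named after its values were seen. The hyaluronan receptor gene Layn was 21.6 and 50.7 FPKM, while Cd44, the more abundant receptor in both libraries, differed little. Ptx3, whose product crosslinks hyaluronan in the cumulus matrix, was 0.120 and 8.43 FPKM. Hmmr, at 29.1 and 30.6 FPKM, and the hyaluronidase gene Hyal2, at 20.1 and 16.6 FPKM, were not more than 2-fold changed. Of 11 genes of sugar nucleotide supply past the filter, 0 were more than 2-fold changed, and Ugdh, which makes the UDP-glucuronic acid that Has2 uses, was 115 and 91.9 FPKM. Slc35b2 was 63.3 and 79.4 FPKM and Papss1 53.1 and 56.7 FPKM.

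Bgn, Dcn and Vcan all carry chondroitin or dermatan sulfate. Of 20 genes of its assembly past the filter, 17 were higher in the KO-labelled library, against 50.7% of all genes that passed, and 2 were more than 2-fold higher, with a median of 0.27. These were Csgalnact1, which starts the chondroitin chain, at 9.74 and 21.2 FPKM, and the sulfotransferase gene Chst15, at 1.98 and 7.21 FPKM. The 3 with the highest mean were Chpf2, at 48.2 and 43.4 FPKM, Chpf, at 31.9 and 56.1 FPKM, and Pxylp1, at 26.0 and 46.6 FPKM. Keratan sulfate, the chain of Lum and Fmod, had 5 assembly genes past the filter, 0 of them more than 2-fold changed, with B4galt1 at 48.8 and 49.5 FPKM, Chst1 at 43.4 and 38.7 FPKM and B3gnt2 at 15.2 and 12.7 FPKM. Of 9 genes past the filter for proteases that cut lecticans or release propeptides, and for their enhancers, 0 were more than 2-fold changed. Pcolce was 479 and 465 FPKM, Mmp14 228 and 226 FPKM and Adam10 29.2 and 38.2 FPKM. Of the Adamts genes past the filter, Adamts1 was lower, at 11.7 and 6.87 FPKM, and Adamts4 higher, at 2.46 and 4.35 FPKM. Adamts5 differed little, at 2.30 and 2.37 FPKM. These Adamts genes are named after their values were seen.

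**Figure D5:**
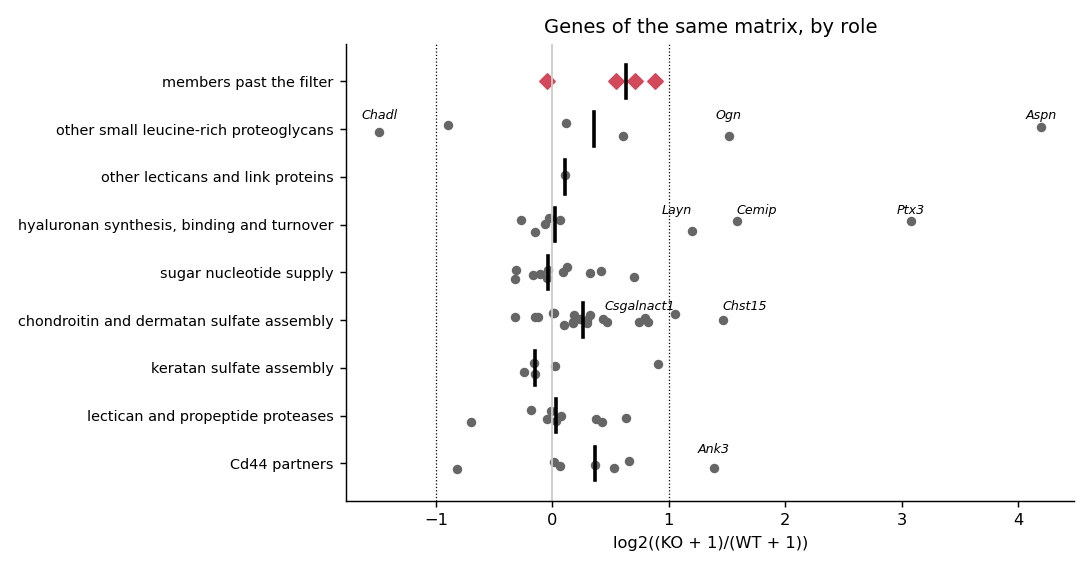
Log2 fold change (horizontal axis) of each gene past the filter in the 4 members (red diamonds) and in 8 lists by role (grey points, spread vertically for legibility), with the median of each as a black bar and dotted lines at a 2-fold difference. The members' median was 0.63 and that of chondroitin and dermatan sulfate assembly was 0.27. Of the 67 list genes 8 lie beyond the upper line (11.9%) and 1 beyond the lower (1.49%). The shares of all genes past the filter were 2.84% and 3.43%. The lists were chosen with earlier results of these data known, so the shares cannot be compared at face value.

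Markers of other cells that express these matrix genes were read beside them. The summed level of 14 fibroblast and fibro-adipogenic genes went from 996 to 822 FPKM. Of 8 past the filter, however, 5 were higher and 3 lower, with a median log2 fold change of 0.024. Among these 8, 2 were over 2-fold changed, Mfap5 upward and Cd34 downward, from 136 to 10.6 FPKM. Dpp4, Tcf21 and Thy1 were at 0 in both libraries. Mfap5 and Cd34 are named after their values were seen. That of 13 chondrocyte genes went from 17.2 to 26.2 FPKM, nearly all of it Sox9, at 16.0 and 24.0 FPKM, and Cnmd, Col9a1, Matn1 and Snorc were at 0 in both, like Acan. The 5 tendon genes went from 104 to 57.2 FPKM, nearly all of it Scx, at 102 and 54.2 FPKM. Mkx was higher, at 2.31 and 3.00 FPKM, and Tnmd was at 0 in both. Scx and Mkx are named after their values were seen. The 10 genes of differentiated muscle went from 3.23 to 5.23 FPKM. Most of this was Acta1, at 1.84 and 3.93 FPKM, and Mylpf, at 0.844 and 1.16 FPKM, the only 2 past the filter. Myh8 was at 0 in both, and the remaining genes of this list were lower in the KO-labelled library. Acta1 and Mylpf are named after their values were seen. The 6 macrophage and leukocyte genes went from 22.5 to 19.6 FPKM, most of it Cd14, at 19.6 and 18.4 FPKM. Ptprc, Adgre1 and Itgam were at 0 in both. Cd14 is named after its values were seen. Of the 5 endothelial genes, 0 passed the filter. The part of the lower myoblast genes and of these lists in the values of Bgn, Vcan, Has2 and Dcn was not tested.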

How the data were processed

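Each deposited file listed gene symbols with a single number and no unit. The methods name expected counts and TPM from RSEM and do not name FPKM. The deposited numbers were taken as FPKM, scaled by the authors to transcript length and depth, because the column totals differed and low values followed transcript length. A TPM table cut to these genes would look alike. It would change fold changes by 1 common factor and leave the fragment totals without a basis. The methods also describe trimming and STAR alignment to GRCm39, whereas the submitters' processing notes list Trim Galore 0.6.6, STAR 2.7.9a, RSEM 1.3.3 and GRCm38. Methods and labels also name different library kits and sequencers.

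The table had 21853 rows, and for the 24 repeats of a symbol the higher row was used. Log2 fold changes had a pseudocount of 1 and a filter of a mean of at least 1 FPKM, and no p-value was computed. The step of 1 fragment was fitted, with settings chosen after seeing the values, to 97 low values in WT and 108 in the KO-labelled library. Its score, a mean cosine that is 1 for exact multiples, was 0.46 in WT and 0.44 in the KO-labelled library. Positions came from GENCODE vM39, by symbol, for 10171 of the 10542 genes past the filter, and promoters from RefSeq on GRCm38.p6. The members and lists were chosen with earlier results of these data known. All members were named, and of each wider list the genes more than 2-fold changed and the 3 with the highest mean. The fold procedure was tested on simulated data. Alternatives were 2 other pseudocounts, 2 other filters, 2 scalings and subtraction of the median of neighbouring genes. Python 3.11.15, numpy 2.4.6 and pandas 2.3.3 were used.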

Additional observations from a re-analysis of the deposited data

How the results depend on the processing

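A log2 fold change was counted as moved when it shifted by more than 0.44, the interquartile range of all genes, and a count when it changed over 1.5 times. By that measure neither scaling moved a result, although scaling to the same total, which also raises all values against the pseudocount, took Dcn from 1.08 to 1.41 and the counts over all genes to 335 and 416. Over 5 alternatives the log2 fold change lay between 0.87 and 0.96 for Bgn, 0.62 and 0.73 for Vcan, 0.40 and 0.73 for Has2 and -0.28 and -0.013 for Fmod. For Cd44 it lay between -0.057 and 0.093, turning positive once the neighbours' median was subtracted. Dcn moved most, to 2.26 when the pseudocount was 0.1 and to 0.34 when it was 5. With no filter, 1 member, Dcn, was more than 2-fold higher. Over all genes, 299 were more than 2-fold higher and 362 lower. These became 102 and 176 when the pseudocount was 5, and 145 and 221 when the mean had to reach 5 FPKM and fewer genes were counted. That pseudocount left 0 of the other small leucine-rich proteoglycans more than 2-fold lower, and 0 genes more than 2-fold higher in chondroitin and dermatan sulfate assembly and among the Cd44 partners. The filter at 5 FPKM left 0 of the other small leucine-rich proteoglycans more than 2-fold lower, moved their median to 0.81, and left 1 gene more than 2-fold higher in the hyaluronan list and 1 in chondroitin and dermatan sulfate assembly. Relative to the median of their neighbours, 0 Cd44 partners were more than 2-fold higher. In the hyaluronan list 2 genes remained more than 2-fold higher relative to their neighbours, and 2 when the pseudocount was 5. No paired analysis was possible because no test was run on 1 library per line, and for the same reason no replicate could be left out. Tests made for counts were not applied to FPKM values.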
